A study of Mus musculus with 18 samples.

Results

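Oligodendrocyte lineage and myelin genes were followed in RNA of the adult mouse dentate gyrus, the part of the hippocampus built around granule neurons. The set held 30 genes, named by symbol, from precursor surface proteins to proteins of compact myelin, with no threshold on the measured values. All 30 were found among the 24015 rows of each table, and all 30 passed the authors' filter on low values, having an adjusted p in each. They were ordered here by role into 11 genes of the myelin sheath and its junctions, 8 enzymes, carriers and receptors of mature cells, 5 transcription factors, 3 genes of committed precursors and newly formed cells, and 3 precursor genes.

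The animals were C57BL/6 mice aged 8 weeks, and each of the 6 groups held 3 libraries, with 1 mouse behind each. The groups were cFos_OE, which overexpressed c-Fos, and its counterpart EYFP_OE, which overexpressed a yellow fluorescent protein. The other groups were shRNA-cFos_E1 and shRNA-cFos_E0, with a short hairpin RNA named for c-Fos, and shRNA-Ctrl_E1 and shRNA-Ctrl_E0, with a control hairpin. E1 followed neuronal activation and E0 was the sham state, going by the series title and the names of the authors' comparisons. Every group thus carried a construct. The sources used here do not give how the constructs were delivered, which promoter drove them or whether oligodendrocytes took them up.

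Oligodendrocytes wrap axons in myelin, a stack of membrane rich in galactolipids that is held together by a few abundant proteins. They arise throughout life from dividing precursors that carry the PDGF receptor alpha and the proteoglycan NG2. Precursors that commit pass through a short stage marked by GPR17, BCAS1 and ENPP6 before they make myelin, under the control of OLIG1, OLIG2, SOX10 and the NKX factors.

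Each result below is a log2 fold change ± its standard error from the authors' DESeq2 fit, and a gene is called at an adjusted p under 0.05. Levels per group are normalized counts estimated from the authors' mean and from the fold change with its shrinkage undone. The ratio of 2 levels is therefore wider than the deposited fold change beside it, most so for genes with large standard errors. The levels carry no error, and without values per library it could not be seen whether the groups overlap. Since the tissue was sequenced in bulk, fewer cells of a type and less RNA per cell cannot be told apart. Fos, the targeted gene, rose at E1 by 2.33 ± 0.15 with shRNA-cFos and by 3.36 ± 0.14 with shRNA-Ctrl in the authors' deposited tables. It stood 3.34 ± 0.20 higher in cFos_OE, from the authors' deposited table.

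The stretches upstream of the precursor genes that rose together, and of Olig2, which had the largest fall with shRNA-cFos, are shown because c-Fos acts through DNA as a subunit of AP-1. They are 250 bases that end just before the annotated start, from RefSeq on the build GRCm38.p6, which is later than the authors' mm9. Capitals mark the only match to the 3 motifs searched, the short form TGACG of the cyclic AMP response element, read on the other strand. Pdgfra lies on the plus strand at chr5:75152001-75152250, Cspg4 on the plus strand at chr9:56864854-56865103, Vcan on the minus strand at chr13:89742513-89742762 and Olig2 on the plus strand at chr16:91225300-91225549.
Pdgfra: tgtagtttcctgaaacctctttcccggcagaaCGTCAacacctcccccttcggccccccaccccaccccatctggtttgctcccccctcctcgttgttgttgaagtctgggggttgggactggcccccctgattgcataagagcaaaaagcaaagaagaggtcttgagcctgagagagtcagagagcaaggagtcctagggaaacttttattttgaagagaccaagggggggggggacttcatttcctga
Cspg4: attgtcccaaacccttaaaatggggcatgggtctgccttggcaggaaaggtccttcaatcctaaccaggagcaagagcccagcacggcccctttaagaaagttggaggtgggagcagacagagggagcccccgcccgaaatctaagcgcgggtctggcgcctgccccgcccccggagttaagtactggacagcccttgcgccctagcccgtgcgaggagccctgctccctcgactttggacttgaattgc
Vcan: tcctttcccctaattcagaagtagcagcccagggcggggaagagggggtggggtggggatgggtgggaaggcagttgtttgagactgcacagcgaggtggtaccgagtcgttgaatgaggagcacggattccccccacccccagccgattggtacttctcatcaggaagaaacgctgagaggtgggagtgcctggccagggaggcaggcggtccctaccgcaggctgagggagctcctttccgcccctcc
Olig2: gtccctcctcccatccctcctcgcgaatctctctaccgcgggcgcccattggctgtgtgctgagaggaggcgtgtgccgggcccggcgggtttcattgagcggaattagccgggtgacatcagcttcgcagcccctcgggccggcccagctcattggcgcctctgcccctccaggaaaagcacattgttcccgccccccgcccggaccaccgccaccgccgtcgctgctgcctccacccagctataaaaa

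RefSeq upstream windows were at hand for 21 of the 30 genes, 29 windows in all with alternative starts. The 9 others were Bcas1, Car2, Sox10, Trf, Fa2h, Gpr17, Enpp2, Olig1 and Mbp. The AP-1 letters TGANTCA, which read the same on both strands, were in 0 of the 29 windows and in 6.75% of 32851 windows over all genes. The letters TGACG, on either strand, were in 1 of 29 windows, that of Pdgfra, and in 17.8% of all windows. The SOX letters ACAAAG, on either strand, were in 10 of 29 windows and in 16.5% of all windows. Those 10 windows belonged to 7 genes, Cnp, Gjb1, Lpar1, Mag, Mobp, Opalin and Tspan2. These are matches of letters within 250 bases and say nothing of binding.

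With the hairpin named for c-Fos, genes of each of the 5 roles fell at E1, and none of the 30 rose. In total 9 fell and 0 rose, where 11.7% of all genes tested fell and 16.3% rose in the authors' deposited table. The 9 were Cldn11 and Gjb1 of the sheath and junctions, Ugt8a, Trf and Car2 of the enzymes and carriers, Olig1 and Olig2, Bcas1 of the committed stage, and Vcan. At an adjusted p under 0.01 the count was 6 lower and 0 higher, without Ugt8a, Bcas1 and Vcan, from the authors' deposited table. No precursor or committed gene passed at that threshold. At an unadjusted p under 0.05 in the authors' DESeq2 test, 10 genes were lower and 1 higher, beside 17.4% lower and 20.7% higher over all genes, computed from the authors' deposited table. The medians were -0.09 for the 6 precursor and committed genes and -0.19 for the 19 mature genes, beside -0.0031 for all genes in the authors' deposited table.

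Of the transcription factors, Olig2 and Olig1 fell. OLIG1 and OLIG2 are basic helix-loop-helix proteins that specify the lineage. Olig2 had 291 normalized counts at E1, against 536 at E0, computed from the authors' deposited table for shRNA-cFos. Its log2 fold change of -0.81 ± 0.14 was the lowest of the set (adjusted p = 1.7e-07, the authors' deposited table). Olig1 had 1540 at E1, against 2083 at E0, and was at -0.41 ± 0.11 (adjusted p = 0.002, from the authors' deposited table). All 5 transcription factors lay below 0 with their median at -0.38 (the authors' deposited table), but Sox10 (-0.25 ± 0.14), which switches on myelin genes, and the homeobox genes Nkx2-2 (-0.38 ± 0.25) and Nkx6-2 (-0.37 ± 0.22) did not pass.

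Of the mature genes, 5 of 19 fell. Trf encodes transferrin, the iron carrier that oligodendrocytes make in the brain, and its level was 2350 at E1, against 3651 at E0, a log2 fold change of -0.60 ± 0.12 (adjusted p = 6.1e-06, from the authors' deposited table). Gjb1 encodes a connexin that couples the layers of the sheath, and had 53.4 normalized counts at E1, against 96.3 at E0, from the authors' deposited table. It was at -0.69 ± 0.21 (adjusted p = 0.0052, the authors' deposited table). Cldn11, the claudin of the tight junctions between myelin turns, had 945 at E1, against 1303 at E0, and was at -0.43 ± 0.13 (adjusted p = 0.0042, from the authors' deposited table). These are genes of an iron carrier and of membrane junctions. The genes of the main structural proteins, such as Mbp and Mobp, did not pass. The errors of Mbp and Mobp, 0.20 and 0.23, were larger than those of Trf and Cldn11 but close to the 0.21 of Gjb1. The structural genes were not tested against the genes that fell. Car2, a cytosolic carbonic anhydrase, was at -0.36 ± 0.10 and Ugt8a, which makes the galactolipid of myelin, at -0.39 ± 0.14 (adjusted p = 0.0034 and 0.023, the authors' deposited table). The other 5 enzyme, carrier and receptor genes did not pass and ranged from -0.25 for Lpar1 to 0.05 for Qdpr in the authors' deposited table.

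The remaining sheath genes did not pass and spanned 0. In the authors' deposited table Mbp, whose product compacts the membrane stack, was at -0.10 ± 0.20, Mag, an adhesion protein facing the axon, at -0.23 ± 0.21 and Mog, on the outer surface of the sheath, at -0.05 ± 0.18. Mobp was at 0.00 ± 0.23, Cnp, an enzyme bound to the cytoplasmic face of myelin, at 0.03 ± 0.20, and Mal, a lipid raft protein, at 0.09 ± 0.24 in the authors' deposited table. Opalin (-0.30 ± 0.20), a transmembrane glycoprotein gene of mature cells, the cytoskeletal protein gene Ermn (-0.38 ± 0.16, adjusted p = 0.062) and the tetraspanin gene Tspan2 (-0.04 ± 0.13) did not pass either in the authors' deposited table.

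The precursor genes parted in this arm. Vcan encodes versican, a matrix proteoglycan that precursors secrete. It had 293 normalized counts at E1, against 374 at E0, and was at -0.33 ± 0.12 (adjusted p = 0.023, from the authors' deposited table). Cspg4, which encodes NG2, had 340 at E1, against 307 at E0, and Pdgfra, the receptor through which PDGF keeps precursors dividing, 917 at E1, against 869 at E0, computed from the authors' deposited table. Their log2 fold changes of 0.14 ± 0.12 and 0.07 ± 0.11 did not pass in the authors' deposited table. Of the committed genes, Bcas1 was at -0.33 ± 0.12 (adjusted p = 0.025), Gpr17, a receptor of the committed stage, at 0.25 ± 0.11 (adjusted p = 0.078) and Enpp6, a choline phosphodiesterase of newly formed cells, at -0.25 ± 0.24 in the authors' deposited table. Of the microglial markers 6 of 11 fell and 1 rose, with a median of -0.37, and of the granule neuron markers 5 of 8 rose and 0 fell, with a median of 0.24, in the authors' deposited table. Of the astrocyte markers 5 of 10 rose and 1 fell, with Slc1a2 at 0.64 ± 0.09, Gja1 at 0.57 ± 0.08 and Sox9 at -0.54 ± 0.11, in the authors' deposited table. Of 9 endothelial markers 1 rose and 1 fell, with a median of -0.10, in the authors' deposited table. Of 6 markers of mural cells of the vessels 0 rose and 1 fell, with a median of -0.26 (the authors' deposited table). Of 4 choroid plexus and 6 fibroblast markers tested, 0 rose and 0 fell, with medians of -0.02 and 0.06 (the authors' deposited table). The part of these cell types in the fall of the 9 genes was not tested.

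**Figure D1:**
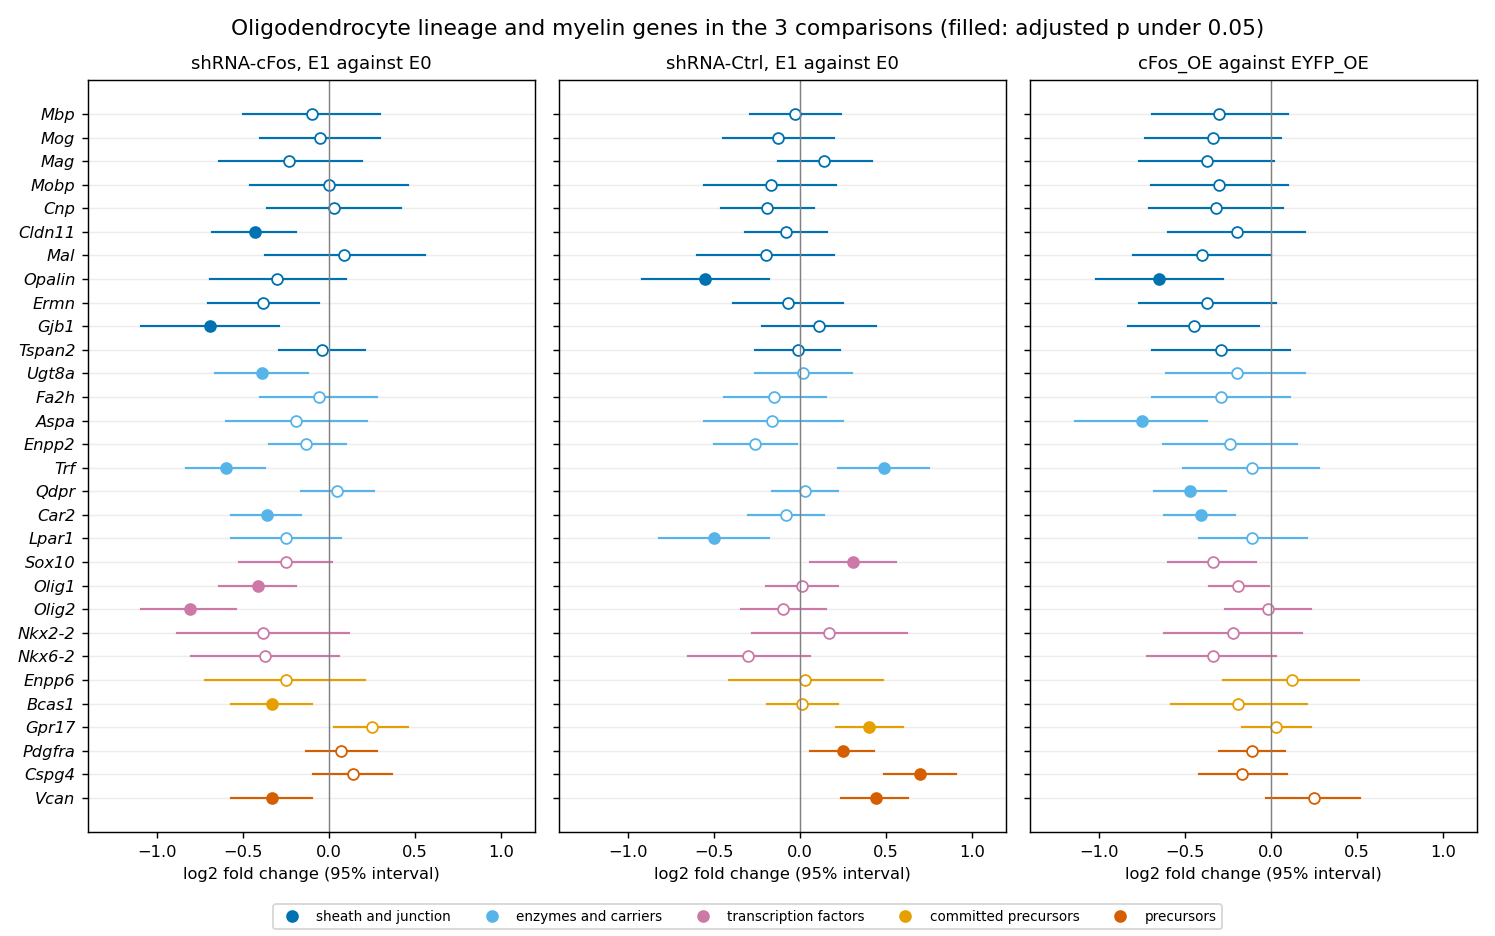
Log2 fold change (x axis) of the 30 genes (rows, coloured by role) in each comparison, with bars for the 95% interval and filled points for an adjusted p under 0.05 in the authors' deposited tables. With shRNA-cFos 9 genes of several roles are filled on the left of 0, with shRNA-Ctrl the 3 precursor genes are filled on the right, and all 19 mature genes lie left of 0 with overexpression, 4 of them filled.

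With the control hairpin the 3 precursor genes of the set rose at E1, while most of the 19 mature genes did not pass the test. All 3 precursor genes and 1 of 3 committed precursor genes were higher, against 1 higher and 2 lower among the 19 mature genes, in the authors' deposited table. Over the whole set 6 genes rose and 2 fell, where 16.8% of all genes tested were higher and 16.2% lower at E1 (the authors' deposited table). At an adjusted p under 0.01 the count was 4 higher and 0 lower, without Pdgfra, Sox10, Opalin and Lpar1, from the authors' deposited table. At an unadjusted p under 0.05, 6 genes were higher and 3 lower, beside 21.1% higher and 20.6% lower over all genes, computed from the authors' deposited table. The median log2 fold change was 0.32 for the 6 precursor and committed genes and -0.08 for the 19 mature genes, beside 0.0071 for all genes in the authors' deposited table.

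Cspg4 led the set. Its level was 599 normalized counts at E1, against 362 at E0, computed from the authors' deposited table for the control hairpin. The log2 fold change was 0.70 ± 0.11 (adjusted p = 2.5e-09, the authors' deposited table). Vcan, which fell with shRNA-cFos, had 435 normalized counts at E1, against 318 at E0, computed from the authors' deposited table. Its log2 fold change was 0.44 ± 0.10 (adjusted p = 8.8e-05, the authors' deposited table). Pdgfra stood at 1243 at E1, against 1042 at E0, and rose by 0.25 ± 0.10 (adjusted p = 0.031, from the authors' deposited table). Gpr17 had 937 normalized counts at E1, against 704 at E0, and rose by 0.40 ± 0.10 (adjusted p = 0.00041, from the authors' deposited table). The other committed genes lay close to 0 in the authors' deposited table, with Bcas1 at 0.01 ± 0.10 and Enpp6 at 0.03 ± 0.23.

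Pdgfra is also made by fibroblasts of the vessels and meninges. Of the 6 markers of that cell type, 4 fell and 1 rose in the authors' deposited table, the one that rose being Pdgfra itself, and the collagen gene Col1a1 was at -0.76 ± 0.29. Among markers of other cells, 9 of 11 microglial genes rose and 0 fell, with a median of 0.33, and 4 of 9 endothelial genes rose and 0 fell, with a median of 0.26, in the authors' deposited table. Of the dentate granule neuron markers 6 of 8 fell and 1 rose, with a median of -0.54, while 2 of 10 astrocyte markers were higher and 0 lower (the authors' deposited table). Of the 6 markers of mural cells of the vessels, 0 rose and 0 fell, with a median of -0.01, in the authors' deposited table. The part of these other cell types in the rise of the precursor genes was not tested.

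Among the transcription factors, only Sox10 passed with the control hairpin, and barely. It had 629 normalized counts at E1, against 501 at E0, and rose by 0.31 ± 0.13 (adjusted p = 0.046, from the authors' deposited table). Centred on the median of all genes its adjusted p was 0.052, computed from the authors' deposited table. Olig1 and Olig2, both lower with shRNA-cFos, were at 0.01 ± 0.11 and -0.10 ± 0.13 in the authors' deposited table. Nkx2-2 and Nkx6-2 were at 0.17 ± 0.23 and -0.30 ± 0.18 in the authors' deposited table.

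Of the genes of mature cells, Trf rose and Opalin and Lpar1 fell with the control hairpin. The level of Trf, which fell with shRNA-cFos, was 4264 at E1, against 2983 at E0, computed from the authors' deposited table. Its log2 fold change was 0.49 ± 0.14 (adjusted p = 0.0022, the authors' deposited table). Transferrin is also made by the choroid plexus, of whose 6 markers tested here 0 rose and 1 fell, with Ttr at -0.55 ± 0.27 (adjusted p = 0.1, the authors' deposited table). Opalin had 91.4 normalized counts at E1, against 141 at E0, and was at -0.55 ± 0.19 (adjusted p = 0.013, from the authors' deposited table). Lpar1, a receptor for lysophosphatidic acid, had 201 at E1, against 294 at E0, and was at -0.50 ± 0.16 (adjusted p = 0.01, from the authors' deposited table). The other 6 enzyme and carrier genes ranged from -0.26 for Enpp2 (adjusted p = 0.091) to 0.03 for Qdpr in the authors' deposited table. The other 10 sheath and junction genes ranged from -0.20 for Mal to 0.14 for Mag in the authors' deposited table. Mbp was nearly level with 13666 normalized counts at E1, against 13920 at E0, and a log2 fold change of -0.03 ± 0.14 from the authors' deposited table. Its 95% interval of -0.29 to 0.24, computed from the authors' deposited table, allows a change of either sign. The 95% interval of Cspg4, 0.49 to 0.91, lay above that of 18 of the 19 mature genes, all but Trf, computed from the authors' deposited table. The genes share their 6 libraries, so such intervals order them and do not test one against another.

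**Figure D2:**
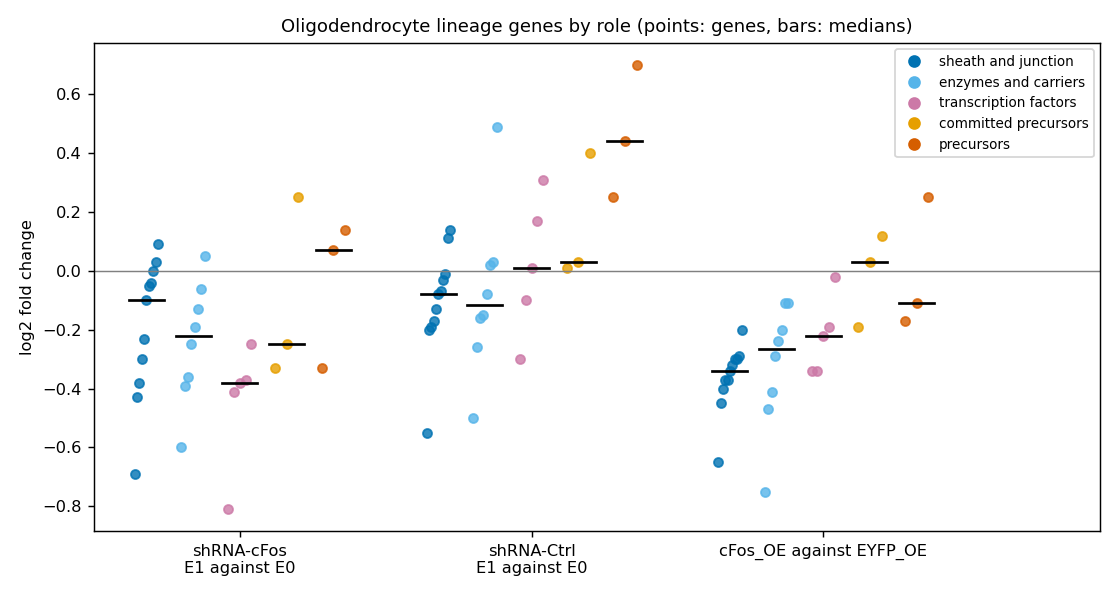
Log2 fold change (y axis) of each gene, grouped by comparison (x axis) and coloured by role, with a black bar at each role's median. The median of the 3 precursor genes is 0.07 with shRNA-cFos, 0.44 with shRNA-Ctrl and -0.11 with overexpression. That of the 11 sheath and junction genes is -0.10 with shRNA-cFos, -0.08 with shRNA-Ctrl and -0.34 with overexpression.

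The E1 responses of the hairpins were then compared gene by gene, as shRNA-cFos minus shRNA-Ctrl. The arms share no library. No comparison set the hairpins side by side within E0 or within E1. A differing level at E0 and a differing level at E1 therefore cannot be told apart. The response was lower with shRNA-cFos for 7 of the 30 genes and higher for 0, where 11.0% of all genes had a lower and 12.9% a higher response, computed from the authors' deposited tables. At an unadjusted p under 0.05 (normal approximation) 10 were lower and 0 higher, beside 16.3% lower and 18.1% higher over all genes, and at an adjusted p under 0.01 the count was 4 lower, from the authors' deposited tables. The 7 were Trf, Vcan, Cspg4, Olig2, Olig1, Sox10 and Gjb1. By role they were 3 of the 5 transcription factors, 2 of the 3 precursor genes, 0 of the 3 committed genes and 2 of the 19 mature genes.

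Trf had the lowest difference, -1.09 ± 0.18 (normal approximation, Benjamini-Hochberg adjusted p = 1.3e-07), computed from the authors' deposited tables. For Vcan it was -0.77 ± 0.16 (adjusted p = 1.8e-05, from the authors' deposited tables). Both fell with shRNA-cFos and rose with shRNA-Ctrl, the only 2 of the 30 to do so. For Cspg4 the difference was -0.56 ± 0.16 (adjusted p = 0.004) and for Sox10 -0.56 ± 0.19 (adjusted p = 0.016), from the authors' deposited tables. For these genes the called change was the rise with shRNA-Ctrl. Olig2 differed by -0.72 ± 0.19 (adjusted p = 0.0015), Olig1 by -0.43 ± 0.16 (adjusted p = 0.029) and Gjb1 by -0.80 ± 0.27 (adjusted p = 0.015), from the authors' deposited tables. For them the called change was the fall with shRNA-cFos. Car2 (-0.28 ± 0.15), Cldn11 (-0.35 ± 0.18), Ugt8a (-0.41 ± 0.20) and Bcas1 (-0.34 ± 0.16), which also fell with shRNA-cFos, did not pass in the difference, from the authors' deposited tables.

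For Pdgfra the difference was -0.17 ± 0.14, with a 95% interval of -0.45 to 0.11, computed from the authors' deposited tables. For Gpr17 it was -0.15 ± 0.15, with an interval of -0.45 to 0.14, from the authors' deposited tables. Their rise with the control hairpin alone is therefore not shown to be particular to it. Mbp differed by -0.08 ± 0.25, with an interval of -0.56 to 0.40, from the authors' deposited tables. The median difference was -0.03 for the 11 sheath and junction genes, -0.55 for the 5 transcription factors and -0.56 for the 3 precursor genes, beside 0.01 for all genes, from the authors' deposited tables. For 18 other precursor genes, kept in a list apart, it was 0.0 with 4 higher and 1 lower, and for 25 other mature genes -0.08 with 3 higher and 2 lower, from the authors' deposited tables. The response of microglial markers was also lower with shRNA-cFos, for 7 of 11 with a median of -0.65, of endothelial markers lower, for 3 of 9 with a median of -0.42, and of granule neuron markers higher, for 7 of 8 with a median of 0.79, from the authors' deposited tables. Astrocyte markers had 3 of 10 higher and 2 lower, and mural markers 0 of 6 higher and 1 lower, with a mural median of -0.33, from the authors' deposited tables. Fibroblast markers had 1 of 6 higher and 0 lower, with a median of 0.73, from the authors' deposited tables. Choroid plexus markers had 1 of the 3 tested higher and 0 lower, with a median of 0.52, from the authors' deposited tables. The part of these cell types in these differences was not tested.

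**Figure D3:**
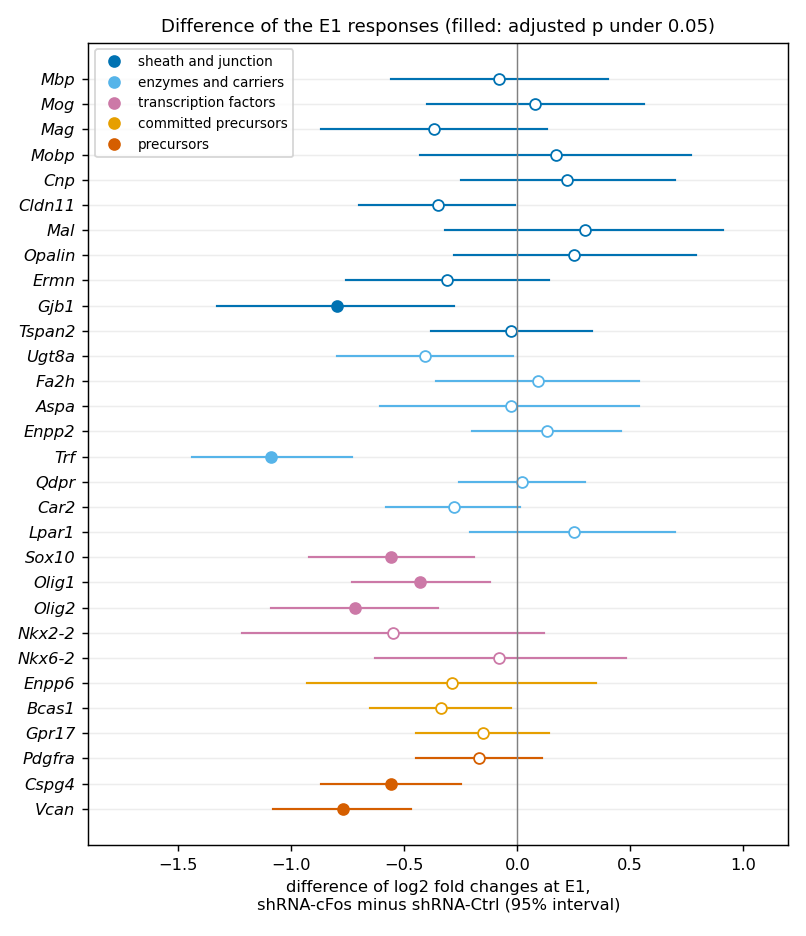
Difference of the E1 log2 fold changes, shRNA-cFos minus shRNA-Ctrl (x axis, with bars for the 95% interval), of the 30 genes (rows, coloured by role), filled where the adjusted p is under 0.05. The 7 filled points all lie left of 0, from -1.09 for Trf to -0.43 for Olig1.

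With c-Fos overexpression, 4 of the 19 genes grouped here as mature were lower, and no precursor gene passed the test. They were 4 of the 30 genes, with 0 higher, where 5.86% of all genes tested fell and 7.1% rose in the authors' deposited table. At an unadjusted p under 0.05 in the authors' DESeq2 test, 7 genes were lower and 0 higher, none of them a precursor or committed gene, beside 10.8% lower and 11.6% higher over all genes, computed from the authors' deposited table. The median log2 fold change was -0.32 for the 19 mature genes and -0.04 for the 6 precursor and committed genes, beside -0.0067 for all genes in the authors' deposited table. With the shrinkage undone the medians were -0.51 for the mature genes and -0.04 for the precursor and committed genes, computed from the authors' deposited table, with Aspa at -1.18, Mal at -0.74 and Mbp at -0.51. All 19 mature genes lay below 0 in the authors' deposited table, from -0.75 for Aspa to -0.11 for Lpar1.

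Aspa encodes aspartoacylase, which frees acetate for myelin lipids, and had 46.3 normalized counts in cFos_OE, against 105 in EYFP_OE, computed from the authors' deposited table. Its log2 fold change was -0.75 ± 0.20 (adjusted p = 0.0021, the authors' deposited table). Opalin had 69.9 in cFos_OE, against 135 in EYFP_OE, and was at -0.65 ± 0.19 (adjusted p = 0.008, from the authors' deposited table). Both are expressed at low levels here, and Opalin was also lower at E1 with the control hairpin. Qdpr, which regenerates tetrahydrobiopterin, had 1384 in cFos_OE, against 1966 in EYFP_OE, and was at -0.47 ± 0.11 (adjusted p = 0.00033, from the authors' deposited table). Car2 had 1435 in cFos_OE, against 1950 in EYFP_OE, and was at -0.41 ± 0.11 (adjusted p = 0.0015, from the authors' deposited table). In bulk tissue it cannot be seen which cells made the RNA of Qdpr and Car2.

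The sheath and junction genes other than Opalin lay between -0.45 and -0.20 in the authors' deposited table, with large errors, and none passed. With the shrinkage undone these 10 genes lay between -0.74 and -0.37, computed from the authors' deposited table. Mbp had 9832 normalized counts in cFos_OE, against 14026 in EYFP_OE, and Mag 941 in cFos_OE, against 1459 in EYFP_OE, computed from the authors' deposited table. Their log2 fold changes were -0.30 ± 0.20 and -0.37 ± 0.20 in the authors' deposited table, and neither passed (adjusted p = 0.44 and 0.26). The same held for Mog (-0.34 ± 0.20), Mobp (-0.30 ± 0.20), Cnp (-0.32 ± 0.20), Mal (-0.40 ± 0.20), Ermn (-0.37 ± 0.20) and Tspan2 (-0.29 ± 0.20) in the authors' deposited table. It also held for Gjb1 (-0.45 ± 0.19), Cldn11 (-0.20 ± 0.20), Ugt8a (-0.20 ± 0.20) and Fa2h (-0.29 ± 0.20), which hydroxylates the fatty acids of myelin lipids, in the authors' deposited table. Enpp2, whose product autotaxin makes lysophosphatidic acid, was at -0.24 ± 0.20 and Trf at -0.11 ± 0.20 in the authors' deposited table. Enpp2 is also a gene of the choroid plexus, of whose 8 markers 2 rose and 0 fell, Prlr at 1.47 ± 0.19 and Aqp1 at 1.11 ± 0.20, with Ttr at 0.38 ± 0.20 (adjusted p = 0.26), in the authors' deposited table.

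The transcription factors and precursor genes did not pass with overexpression. Sox10 came closest, with 383 normalized counts in cFos_OE, against 500 in EYFP_OE, and a log2 fold change of -0.34 ± 0.13 (adjusted p = 0.063, from the authors' deposited table). Olig2 was at -0.02 ± 0.13, Olig1 at -0.19 ± 0.09, Nkx2-2 at -0.22 ± 0.20 and Nkx6-2 at -0.34 ± 0.19 in the authors' deposited table. Pdgfra (-0.11 ± 0.10), Cspg4 (-0.17 ± 0.13), Vcan (0.25 ± 0.14), Gpr17 (0.03 ± 0.10), Bcas1 (-0.19 ± 0.20) and Enpp6 (0.12 ± 0.20) had values on both sides of 0 in the authors' deposited table. Microglial markers rose for 7 of 11 and fell for 0, with a median of 0.40, and granule neuron markers fell for 4 of 8 and rose for 0, with a median of -0.35, in the authors' deposited table. Endothelial markers fell for 4 of 9 and rose for 0, with a median of -0.21, while 2 of 10 astrocyte markers were higher and 1 lower (the authors' deposited table). Their part in the lower mature genes was not tested.

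The errors of the myelin genes were larger than those of most genes of like abundance. Each gene's standard error was set beside those of all genes tested with a mean count within 1.5 times its own. For Mbp with overexpression it was 2.89 times their median, for Cnp 2.70 and for Mobp 2.49, computed from the authors' deposited table. Over the 11 sheath and junction genes the median ratio was 2.41 with overexpression, 1.40 with shRNA-cFos and 1.53 with shRNA-Ctrl, from the authors' deposited tables. For the 3 precursor genes it was 1.10 with overexpression, 0.962 with shRNA-cFos and 1.08 with shRNA-Ctrl, from the authors' deposited tables. Of the 11 sheath and junction genes, 10 lay above the 95th percentile of genes of like mean count with overexpression, 9 with shRNA-cFos and 9 with shRNA-Ctrl, against 0 of the 3 precursor genes in each, from the authors' deposited tables. The deposited fold changes are shrunken toward 0, so no standard error in the overexpression table exceeds 0.20, and the ratios for genes at that value are understated. Large ratios were not particular to the set. With shRNA-Ctrl the ratio was 3.46 for Apod, another gene of mature oligodendrocytes, 2.79 for the fibroblast gene Col1a1, 2.64 for the granule neuron gene C1ql2 and 2.33 for the microglial gene C1qa, computed from the authors' deposited table.

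Among genes with a mean of at least 300 normalized counts, 73 of 8175 had a standard error of at least 0.19 with overexpression, which is 0.893%, from the authors' deposited table. Of the 14 mature genes of the set at that abundance, 12 were among them, all but Qdpr and Car2, which are 2 of the 4 genes called there. Of 11 other mature genes at that abundance 6 were among them, and of 11 precursor and committed genes, those of the set and of the other list together, 1 was, Bcas1, from the authors' deposited table. These limits were set after the values were seen. With shRNA-cFos 5 of 11 mature genes passed both limits, and with shRNA-Ctrl 2 of 14, beside 0.892% and 1.08% of all genes, from the authors' deposited tables. With a standard error near 0.20, the 95% interval of Mal reached from -0.80 to 0.00 and that of Mbp from -0.69 to 0.10 with overexpression, computed from the authors' deposited table. A lower or an equal level in cFos_OE cannot be told apart for these genes at this precision.

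**Figure D4:**
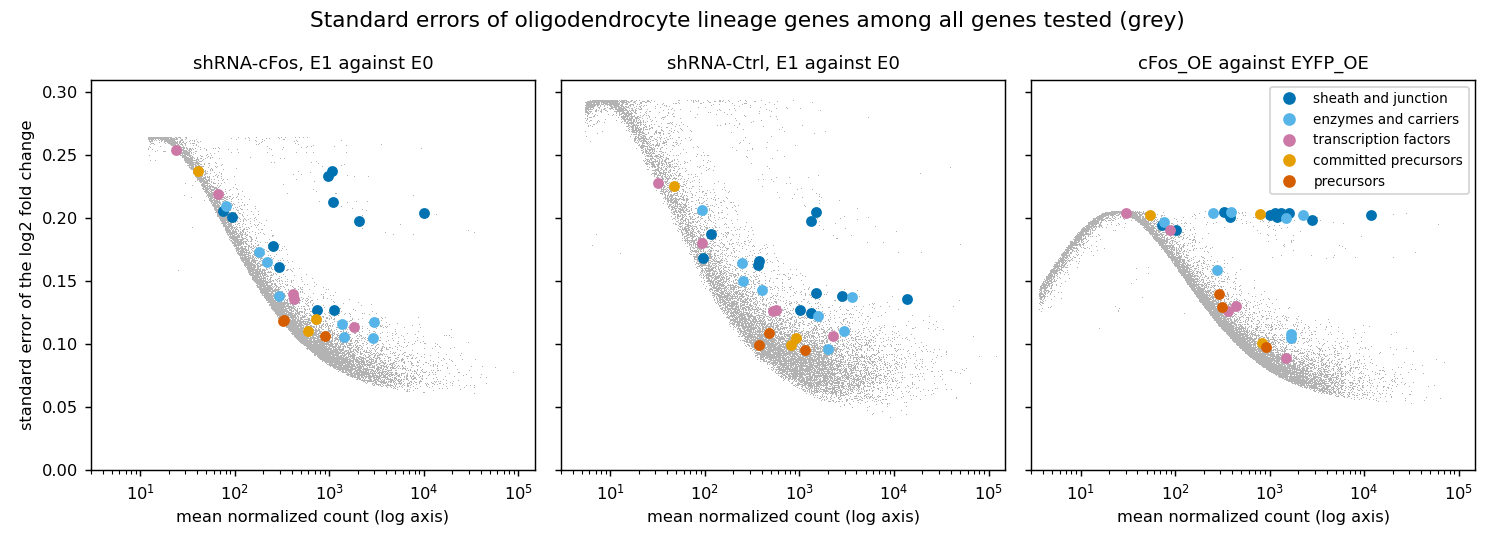
Standard error of the log2 fold change (y axis) against the mean normalized count (x axis, log scale) in the authors' deposited tables, with all genes tested in grey and the 30 genes coloured by role. Precursor genes lie in the grey band. Of the 11 sheath and junction genes, 9 with each hairpin and 10 with overexpression lie above the 95th percentile of genes of like mean count. With overexpression most of them come near the largest standard error of the table, 0.20.

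Across the 3 comparisons 17 of the 30 genes were called at least once, 4 of them in a pair of comparisons and 0 in all 3, in the authors' deposited tables. Of 14341 genes tested in all 3, 53.6% were called at least once, 16.8% in a pair and 3.32% in all 3, computed from the authors' deposited tables, so the share called at least once was close to that of all genes. The 4 were Opalin, Trf, Car2 and Vcan. Opalin fell with shRNA-Ctrl and was lower with overexpression, Car2 fell with shRNA-cFos and was lower with overexpression, and Trf and Vcan had opposite signs with the hairpins. The 13 genes never called were mostly sheath genes, 8 of the 11, together with Fa2h, Enpp2, Nkx2-2, Nkx6-2 and Enpp6. In all, 13 genes lay below 0 in each comparison, 11 of them mature, beside 15.5% of the genes tested in all 3, computed from the authors' deposited tables.

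Other genes of the lineage were counted from lists kept apart from the set. Of 25 other mature genes, 3 rose and 4 fell with shRNA-cFos, 1 rose and 0 fell with shRNA-Ctrl, and 1 rose and 6 fell with overexpression, in the authors' deposited tables. Among all genes tested, 7.1% were higher and 5.86% lower with overexpression, in the authors' deposited table. Those shares were 16.3% and 11.7% with shRNA-cFos, and 16.8% and 16.2% with shRNA-Ctrl, in the authors' deposited tables. The median of the 25 other mature genes with overexpression, -0.34, lay near the -0.32 of the mature genes of the set, in the authors' deposited table. Klk6, a secreted protease, was at -1.31 ± 0.22 with shRNA-cFos (adjusted p = 4.3e-08) and at 0.83 ± 0.29 with shRNA-Ctrl (adjusted p = 0.017) in the authors' deposited tables. Tppp, a tubulin-binding protein of myelinating cells, was at 0.59 ± 0.11 with shRNA-cFos and -0.41 ± 0.08 with overexpression in the authors' deposited tables. The receptor gene Gpr37 had the same pattern, at 0.43 ± 0.12 with shRNA-cFos and -0.44 ± 0.11 with overexpression, while the protease gene Adamts4 was lower in both, at -0.44 ± 0.16 and -0.49 ± 0.17, in the authors' deposited tables. With overexpression Gsn, which encodes the actin-severing gelsolin, was the 1 higher gene at 0.74 ± 0.20 in the authors' deposited table. With shRNA-cFos Prr5l was at -0.69 ± 0.19 and Gamt, an enzyme of creatine synthesis, at 0.44 ± 0.18 in the authors' deposited table.

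The shares of all genes tested, given above, also stand beside the counts of the other precursor genes. Of 18 other precursor genes, 4 rose and 0 fell with shRNA-cFos, 4 rose and 2 fell with shRNA-Ctrl, and 2 rose and 1 fell with overexpression, in the authors' deposited tables. With shRNA-cFos the higher ones included the matrix gene Tnr (0.59 ± 0.10), the transcription factor gene Sox8 (0.50 ± 0.12) and Epn2 (0.31 ± 0.10) in the authors' deposited table. With shRNA-Ctrl the higher ones included Megf11 (0.41 ± 0.11), Lhfpl3 (0.42 ± 0.13) and the protocadherin gene Pcdh15 (0.39 ± 0.13), and the lower ones were Epn2 (-0.44 ± 0.08) and the semaphorin gene Sema5a (-0.34 ± 0.08), in the authors' deposited table. With overexpression Megf11 stood out at 1.09 ± 0.10 (adjusted p = 8e-23), beside Ptprz1, a receptor phosphatase, at 0.24 ± 0.07 and Epn2 at -0.22 ± 0.07, in the authors' deposited table. Several of these genes, Ptprz1 and Tnr among them, are also made by neurons or astrocytes.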

How the data were processed

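RNA of the dentate gyrus was sequenced in 18 libraries, 3 per group, each from an individual mouse per the labels' protocols. The authors used TopHat2, DESeq2 and the build mm9, per the submitters' processing notes. The sources used here name no counting tool, annotation or strand setting. The 3 deposited tables, 1 per comparison, hold for each gene the mean normalized count over the libraries compared (a signal), the log2 fold change, its standard error, the Wald score, the p-value and the adjusted p-value, per the file headers. They held 0 columns of values per library, so depth is unknown and replicates could neither be compared nor left out. The authors' own fit was therefore used.

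All 24015 rows were read. Rows with names turned into dates, 27 of them and only with overexpression, were left out. Genes with an adjusted p were taken as tested, 15675 with shRNA-Ctrl, 14388 with shRNA-cFos and 15827 with overexpression, at a median of 420, 374 and 325 normalized counts. The deposited log2 fold changes behave as shrunken ones. The largest standard errors, 0.29, 0.26 and 0.2, gave the SD of the prior, 0.59, 0.53 and 0.41, with which the shrinkage was undone as an alternative and the levels per group were estimated. A deposited error fits both a smaller and a larger undone error. The smaller was taken, which gives the smaller undone fold change. The levels per group were not compared between genes or tables. Intervals of 95% are normal ones.

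The 3 comparisons share no library. The difference of the E1 responses was computed for the 14386 genes tested in both shRNA tables, with the standard errors combined, a two-sided normal approximation and Benjamini-Hochberg adjustment over all of them. The calculation was run on normal values simulated with the deposited standard errors, which checks its coding and not the normal approximation itself. Genes of 1 table share its libraries, so counts over the set are descriptions. The set and all lists were chosen with earlier results of these data known. All 30 genes are named. From the other lineage lists and the list of signals to the lineage, up to 3 genes per direction and comparison with the smallest adjusted p are named. Alternatives were a stricter threshold, a fold minimum, adjustment over every gene with a p, centring on the median gene and removal of the prior. Python 3.11.15, pandas 2.3.3, numpy 2.4.6, scipy 1.17.1 and matplotlib 3.10.9 were used.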

Additional observations from a re-analysis of the deposited data

Results flagged for a closer look

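For the following genes the difference between the E1 responses, shRNA-cFos minus shRNA-Ctrl, itself passed the test (adjusted p under 0.05), computed from the authors' deposited tables. Within the set the response was lower with shRNA-cFos for Trf (-1.09), Gjb1 (-0.80), Vcan (-0.77), Olig2 (-0.72), Cspg4 (-0.56), Sox10 (-0.56) and Olig1 (-0.43), from the authors' deposited tables. Fos itself differed by -1.03, from the authors' deposited tables.

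Among the other mature oligodendrocyte genes the difference was -2.14 for Klk6 and -0.70 for Prr5l, and 0.72 for Tppp, 0.61 for Gamt and 0.51 for Gpr37, from the authors' deposited tables. Among the other precursor genes it was 0.75 for Epn2, 0.72 for Sox8, 0.59 for Sema5a, 0.40 for Tnr and -0.50 for Sox6, from the authors' deposited tables. Among signals to the lineage it was -1.68 for Lif, -1.13 for Nrg1, 0.87 for Nrg3 and 0.29 for Tnfrsf21, from the authors' deposited tables.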

How the results depend on the processing

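Under a minimum of 1.2-fold, adjustment over every gene with a p, and centring, 7 genes were called with shRNA-Ctrl, against 8, and the count was 9 with shRNA-cFos and 4 with overexpression, as without these changes. The difference of the E1 responses kept a count of 7 with the prior removed, with both tables centred and over genes with a p in both. At an adjusted p under 0.01, 4 genes were called with shRNA-Ctrl (4 higher and 0 lower, against 8 at 0.05), from the authors' deposited table. With shRNA-cFos 6 were called (0 higher and 6 lower, against 9), and with overexpression 4, as at 0.05. In the difference of the E1 responses 4 were called (0 higher and 4 lower, against 7), computed from the authors' deposited tables. Removing the prior rescales a fold change and its error alike, so in the 3 comparisons it could change neither direction nor call. In the difference, where they could change, each gene kept its direction and call. The median of the mature genes with overexpression was lowered to -0.51. Centring ended 1 call, that of Sox10 with shRNA-Ctrl (adjusted p = 0.052). No direction was reversed. No paired analysis was possible because the tables hold no values per library. Leaving out each replicate was not run for the same reason. Depth per library is unknown, so a single library behind a call could not be seen. With overexpression, genes whose standard error was near 0.20 passed at -0.65 and -0.75 and not at -0.45, in the authors' deposited table.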

Other observations

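Of 13 secreted or surface signals that act on the oligodendrocyte lineage, 12 were tested, all but Cntf. With shRNA-cFos 3 rose and 0 fell, with shRNA-Ctrl 5 rose and 2 fell, and with overexpression 0 rose and 0 fell, in the authors' deposited tables. Bdnf, the neurotrophin made by granule neurons, rose at E1 by 2.30 ± 0.08 with shRNA-cFos and by 2.58 ± 0.10 with shRNA-Ctrl in the authors' deposited tables. Lingo1, a receptor component that restrains myelination, rose by 1.40 ± 0.11 with shRNA-cFos and by 1.27 ± 0.13 with shRNA-Ctrl in the authors' deposited tables. For these 2 genes the E1 response was large with both hairpins.

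The cytokine gene Lif rose by 1.86 ± 0.21 with shRNA-Ctrl, and its response was lower with shRNA-cFos by -1.68 ± 0.29 (adjusted p = 3.2e-07), computed from the authors' deposited tables. The neuregulin gene Nrg3 rose by 0.59 ± 0.14 with shRNA-cFos in the authors' deposited table. With shRNA-Ctrl the Notch ligand gene Jag1 was at -0.44 ± 0.11 and the death receptor gene Tnfrsf21 at -0.18 ± 0.07 in the authors' deposited table. Whether these signals bear on the precursor genes was not tested.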
